A study of Mus musculus with 5 samples.

Results

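The solute carriers are a large superfamily of membrane transporters, and they were read here by what they carry, on 5 arrays of mouse colon. Members were taken as genes whose mouse symbol starts with Slc and a family number, named through the RefSeq accession of their probes, with the mitochondrial Slc25 family left out. The arrays carried 410 probes for 281 such genes. A gene was kept if the scanner software had found at least 1 of its probes on 2 or more arrays, which held for 176 genes with 229 probes, out of 15055 genes or unnamed probes tested. Of the 105 genes not kept, 19 had a probe found on 1 array and 86 on none. Among the 176 kept, 122 were represented by a probe found on all 5 arrays. A symbol does not make a transporter: Slc9a3r1 and Slc9a3r2 encode scaffold proteins and Slc4a1ap an adaptor.

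A solute carrier moves its substrate through the membrane either down its own gradient or coupled to a flow of sodium, protons or another ion that pays for uphill transport. In the colon these proteins take up the short-chain fatty acids that bacteria make from fibre, absorb sodium and chloride, secrete chloride and bicarbonate, and handle phosphate, trace metals, vitamins, amino acids and bile acids. Many sit on only 1 face of the epithelial cell, so that an importer on the luminal side and an exporter on the blood side together carry a nutrient across.

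All 5 samples came from mice on a C57Bl6 background, 10 weeks old at the start, that had been injected with 7.4 mg/kg of the carcinogen azoxymethane and had drunk dextran sulfate sodium (DSS) for 2 cycles. DSS is a polymer that injures the colonic epithelium. The colon was sampled away from tumours at day 56. The 2 villin-TLR4 samples, 1 labelled female and 1 male, were from mice carrying a transgene for TLR4, the receptor for bacterial lipopolysaccharide, under the villin promoter, which is active in intestinal epithelium, and had been given 1.5% DSS. The 3 samples labelled as WT (wild-type) littermates, each of them female, had been given 3% DSS. Genotype and DSS concentration therefore cannot be told apart in any result below. Nothing in the labels ties each numbered sample to a mouse of its own; the p-values reflect the spread of these samples alone, part of which may be technical.

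Levels are log2 of background-corrected, quantile-normalised fluorescence, given in the order villin-TLR4 replicates 1 and 2, then WT littermate replicates 1, 2 and 3. They compare arrays for a gene, not genes with each other. Differences are villin-TLR4 minus WT littermate on the log2 scale, so that 1 is a doubling, with the standard error (SE) of limma's moderated two-sided test. With 5 arrays an exact permutation test of a single gene has 10 splits and cannot give a p below 0.1.

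One array, that of WT littermate replicate 1, differed from the rest. On it 131 solute carriers were found, against 160 to 182 on the others, 1240 spots were marked bad against at most 4, and the upper quartile of its signal lay 116 over background, against 256 to 481. It was the highest or the lowest of the 5 arrays for 68.4% of the 171 members measured on every array, where each other array was so for 29.2% to 36.8%, and over all genes its share was 71.2%. Differences are therefore also given without it where it moved them most. Markers of the labelled tissue were present on each array: the 10 colonocyte markers kept of 13 listed averaged 11.99 to 13.15. Other tissues varied beside them. Exocrine pancreas genes averaged 7.67 and 7.51 in villin-TLR4 and 8.44, 10.09 and 12.95 in WT littermates, small intestinal enterocyte genes 7.15 and 7.00 against 8.49, 7.95 and 8.79, and neutrophil genes 7.97 and 7.99 against 11.23, 7.53 and 7.09. The part these cells play in the differences below was not tested. In bulk tissue, fewer cells of a type and less RNA per cell cannot be told apart.

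The largest differences were higher means in villin-TLR4 of single genes of different families, namely Slc13a2, Slc27a2, Slc5a8, Slc34a2 and Slc39a4, and no solute carrier passed the test. By limma with Benjamini-Hochberg adjustment over the whole table, 0 of 176 members had an adjusted p under 0.05, as did 0 of 15055 genes tested (0%), and the smallest adjusted p among members was 0.87. The unadjusted p was under 0.05 for 11 members, or 6.25%, against 4.84% of all genes tested. Higher means in villin-TLR4 made up 8 of them (4.55%, with 2.7% of all genes) and lower means 3 (1.7%, with 2.14%). The 2 groups did not overlap for 45 of 171 members, or 26.3%, where the share over all genes was 25.5%. These were 29 higher in villin-TLR4 (17%, with 12.6% of all genes) and 16 lower (9.36%, with 12.9%). A difference above 0 was seen for 108 of 176 members (61.4%, with 50.9% of all genes), and the median difference was 0.09 against 0.01 for all genes. The members' median varied between arrays of a group with an SD of 0.12. The SE of a single member had a median of 0.30, which does not measure the uncertainty of a median over genes. Over all arrays 11 members exceeded 1 (6.25%, with 2.28% of all genes) and 0 lay below -1 (with 1.45%). Without WT littermate replicate 1 these became 9 members (5.11%, with 1.99% of all genes) and 2 members, Slc7a5 and Slc26a3 (1.14%, with 1.39%), and Slc26a2, Slc30a1 and Slc2a1 were no longer above 1.

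**Figure D1:**
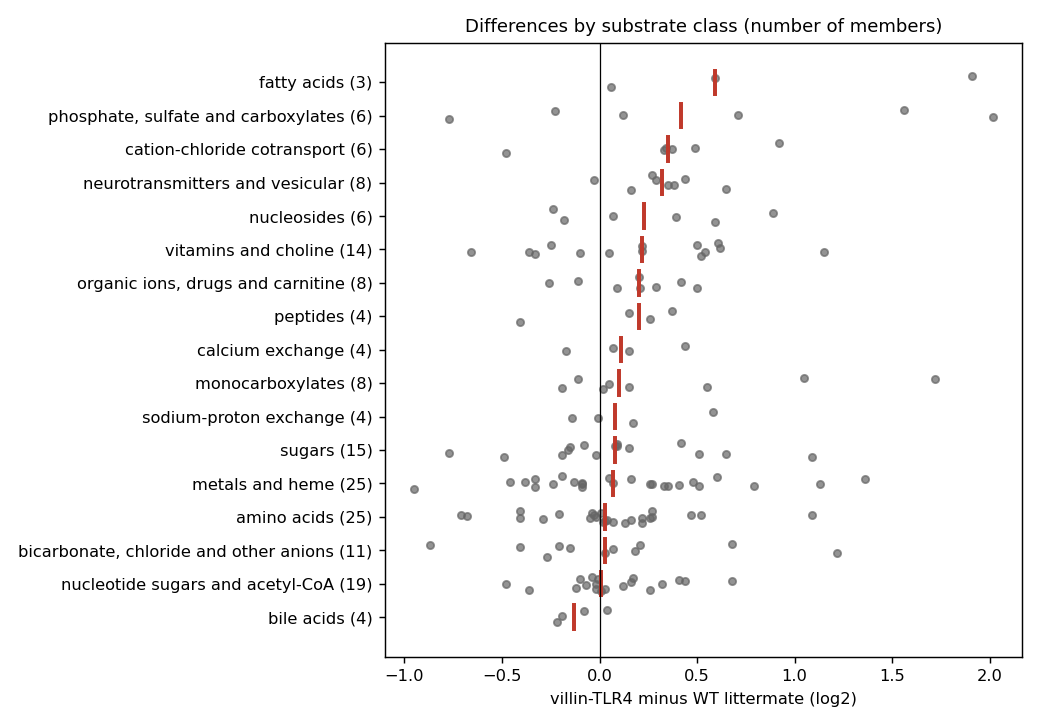
Log2 difference, villin-TLR4 minus WT littermate, of each solute carrier (grey points) in 17 substrate classes of at least 3 kept members, with the class median as a red bar and the number of members in brackets. Most class medians lie between 0 and 0.42, and single members reach 2.02.

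Class medians ran from -0.13 for the 4 bile acid carriers to 0.59 for the 3 fatty acid carriers. The 6 carriers of phosphate, sulfate and carboxylates had a median of 0.42, the 6 cation-chloride cotransporters 0.35 and the 8 neurotransmitter and vesicular carriers 0.32. The 3 most populous classes were close to 0, with 0.03 for 25 amino acid carriers, 0.07 for 25 carriers of metals and heme and 0.01 for 19 carriers of nucleotide sugars and acetyl-CoA. Without WT littermate replicate 1 the medians became 0.12 for phosphate, sulfate and carboxylates, 0.21 for cation-chloride cotransport, 0.12 for neurotransmitters and 0.44 for fatty acids. The classes with a positive median thus did not share 1 size.

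**Figure D2:**
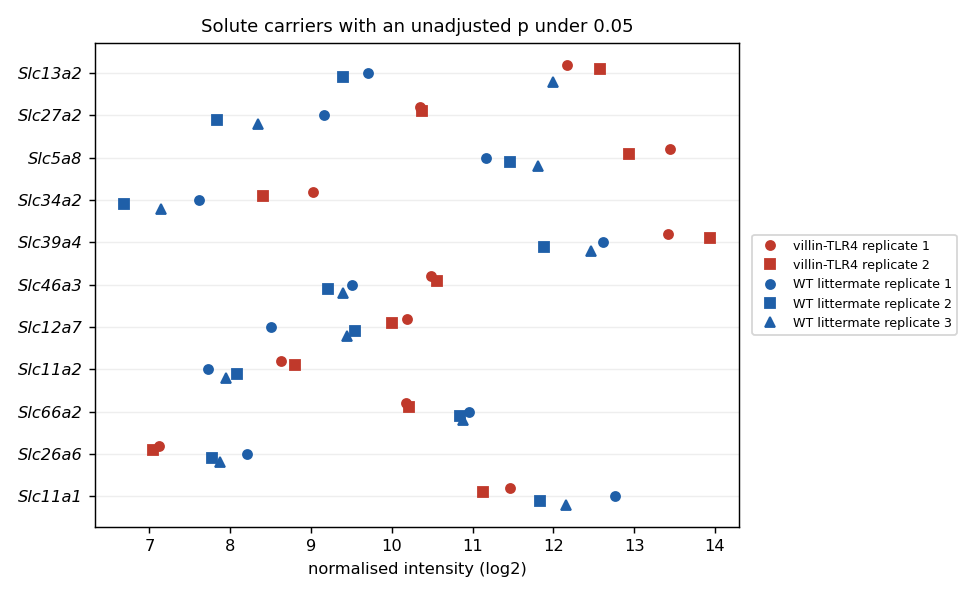
Normalised log2 intensity on each of the 5 arrays for the 11 solute carriers with an unadjusted p under 0.05; red marks villin-TLR4, blue WT littermates, and the marker shape the replicate. For the upper 8 genes both red marks lie to the right of all blue marks, and for the lower 3 to the left; Slc13a2 comes closest to overlap, at 12.17 against 11.99.

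Among carriers of monocarboxylates, Slc5a8 had the smallest p of all members. It encodes the sodium-coupled importer that brings butyrate and other short-chain fatty acids, as well as lactate and pyruvate, into colonocytes from the lumen. Its level was 13.44 and 12.94 in villin-TLR4 and 11.16, 11.46 and 11.81 in WT littermates. Both villin-TLR4 arrays were above all WT littermate arrays by more than 1. The difference was 1.72 ± 0.30 (SE; limma, unadjusted p = 0.00103, adjusted p = 0.87), and the other probe found for the gene gave 1.4. It ranged from 1.46 to 1.97 when each array was left out in turn.

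Slc16a3, which exports lactate from glycolytic cells, read 9.70 and 9.29 in villin-TLR4 and 10.27, 7.40 and 7.66 in WT littermates. WT littermate replicate 1 was the highest of the 5, and the other WT littermate arrays were lower than both villin-TLR4 arrays. The difference was 1.05 ± 0.85 over all arrays and 1.97 without that replicate (limma, unadjusted p = 0.000163, adjusted p = 0.124). Neutrophil genes averaged highest on the same array, at 11.23, and their part in its Slc16a3 level was not tested. Slc16a9 gave 0.55 ± 0.43 with overlapping groups. Slc16a1, the proton-coupled carrier of butyrate and lactate that works beside Slc5a8 in the colon, was found on 1 array and was not kept. The median of the 8 kept monocarboxylate carriers was 0.10, with 6 above 0.

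Slc13a2, the sodium-coupled carrier of citrate, succinate and other dicarboxylates, had the largest difference of any member. It read 12.17 and 12.58 in villin-TLR4 and 9.71, 9.39 and 11.99 in WT littermates. WT littermate replicate 3 lay close to the villin-TLR4 arrays, and the other 2 WT littermate arrays were lower by more than 2. The difference was 2.02 ± 0.76 (limma, unadjusted p = 0.0365, adjusted p = 0.87), 1.69 without WT littermate replicate 1 (unadjusted p = 0.081) and 2.83 without replicate 3. Its relative Slc13a3 read 6.54 and 6.73 against 8.24, 7.10 and 6.88. It was found on neither array of villin-TLR4 and on all WT littermate arrays. Only a bound on the difference of means is therefore given, 1.29-fold higher in WT littermates. This bound includes WT littermate replicate 1, the highest array, without which the difference went from -0.77 to -0.36.

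Phosphate is carried by the Slc34 and Slc20 families. Slc34a2, the sodium-phosphate cotransporter of the intestinal brush border, read 9.02 and 8.40 in villin-TLR4 and 7.61, 6.69 and 7.14 in WT littermates, where it was found on 2 of the 3 arrays. All villin-TLR4 values were above all WT littermate values. The difference was 1.56 ± 0.36 (limma, unadjusted p = 0.00402, adjusted p = 0.87), with a range of 1.25 to 1.87 on leaving out each array. Slc20a1, a more widely expressed phosphate importer, read 11.36 and 11.51 against 9.98, 11.11 and 11.09. Its groups did not overlap either, and its difference of 0.71 ± 0.40 became 0.34 without WT littermate replicate 1.

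Slc27a2 encodes a fatty acid transport protein that also activates very long-chain fatty acids with coenzyme A. It read 10.35 and 10.37 in villin-TLR4 and 9.16, 7.84 and 8.35 in WT littermates. The villin-TLR4 arrays were nearly equal and both exceeded the highest WT littermate array by more than 1. The difference was 1.91 ± 0.40 (limma, unadjusted p = 0.00275, adjusted p = 0.87) and 2.27 without WT littermate replicate 1 (unadjusted p = 8.64e-05, adjusted p = 0.113), the smallest p of any member in that fit. A second found probe gave 1.25. Slc27a4, the fatty acid transport protein known best from the small intestine, gave 0.06 ± 0.24 with overlapping groups.

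The promoters of these 4 members with the largest differences are shown, since they were read higher on the same arrays. Each is 250 bases before to 50 after a gene start of RefSeq (GRCm38.p6), 5′ to 3′ on the gene's strand, in lower case with motif matches in capitals.
Slc5a8 promoter, chr10:88885742-88886041, plus strand: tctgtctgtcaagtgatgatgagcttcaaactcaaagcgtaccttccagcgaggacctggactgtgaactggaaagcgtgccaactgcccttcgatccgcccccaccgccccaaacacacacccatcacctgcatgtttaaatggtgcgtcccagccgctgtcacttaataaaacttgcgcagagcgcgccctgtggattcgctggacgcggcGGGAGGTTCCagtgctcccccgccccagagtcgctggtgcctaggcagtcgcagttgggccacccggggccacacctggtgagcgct
Slc13a2 promoter, chr11:78422185-78422484, minus strand: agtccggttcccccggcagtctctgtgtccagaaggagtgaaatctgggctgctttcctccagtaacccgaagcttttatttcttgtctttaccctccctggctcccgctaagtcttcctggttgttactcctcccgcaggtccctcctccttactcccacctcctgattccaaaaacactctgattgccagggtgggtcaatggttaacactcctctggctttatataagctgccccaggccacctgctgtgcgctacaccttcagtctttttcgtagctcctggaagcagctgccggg
Slc34a2 promoter, chr5:53049103-53049402, plus strand: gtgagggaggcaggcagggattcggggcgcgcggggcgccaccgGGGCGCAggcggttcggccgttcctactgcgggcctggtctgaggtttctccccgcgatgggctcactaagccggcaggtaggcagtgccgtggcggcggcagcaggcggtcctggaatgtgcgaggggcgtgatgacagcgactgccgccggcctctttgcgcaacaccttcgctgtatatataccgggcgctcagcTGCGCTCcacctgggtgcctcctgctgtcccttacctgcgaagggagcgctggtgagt
Slc27a2 promoter, chr2:126552774-126553073, plus strand: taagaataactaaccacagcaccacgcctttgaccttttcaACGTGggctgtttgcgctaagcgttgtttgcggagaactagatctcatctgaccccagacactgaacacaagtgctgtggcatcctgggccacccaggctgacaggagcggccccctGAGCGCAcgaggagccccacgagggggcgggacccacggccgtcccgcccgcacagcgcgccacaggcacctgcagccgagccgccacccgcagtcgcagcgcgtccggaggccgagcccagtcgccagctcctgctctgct
The motifs searched, on both strands, were AP-1 (TGANTCA), the cAMP response element (TGACGTCA), the NF-kB consensus, the hypoxia response core (ACGTG) and 2 forms of the metal response core (TGCACNC and TGCGCNC). None of these motifs contains another, and no match in these 4 windows overlapped another. The Slc5a8 window held 1 NF-kB match at position -37 from the start, and 8.18% of 27025 RefSeq promoter windows held one. The Slc27a2 window held the hypoxia response core at -209 (19.7% of all windows) and TGCGCNC at -92 (15.5%). The Slc34a2 window held TGCGCNC at -206 and at -8, and the Slc13a2 window held none of these letters. No motif was common to the 4. Over the 132 members with a window in that table, 9.85% held AP-1, 8.33% NF-kB and 26.5% the hypoxia response core, where all windows held 7.93%, 8.18% and 19.7%. The metal response cores TGCACNC and TGCGCNC were in 19.7% and 23.5% of member windows and in 12.4% and 15.5% of all windows, and the cAMP response element was in 0% and 1.88%. Where a gene had several windows, as 34 members did, only the first was used. The 27025 windows were not limited to genes found on these arrays, so the shares do not compare like sets. A match is a run of letters and was not shown to bind a factor.

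Carriers of zinc and iron included members on both sides. Slc39a4, the importer that takes up dietary zinc at the luminal membrane, read 13.42 and 13.94 in villin-TLR4 and 12.61, 11.88 and 12.46 in WT littermates. The groups did not overlap. The difference was 1.36 ± 0.32 (limma, unadjusted p = 0.0046, adjusted p = 0.87), and a second probe gave 0.84. Slc30a1, which exports zinc from cells and is a target of the metal-sensing factor MTF1, read 10.12 and 10.46 against 7.91, 10.01 and 9.55. Only WT littermate replicate 1 was far below the others, and the difference of 1.13 ± 0.61 became 0.51 without it; its second probe gave 0.27.

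Slc11a2, the proton-coupled importer of ferrous iron, read 8.63 and 8.80 in villin-TLR4 and 7.73, 8.09 and 7.95 in WT littermates. All villin-TLR4 values were higher, by 0.79 ± 0.24 (limma, unadjusted p = 0.0145, adjusted p = 0.87). Slc40a1, the ferroportin that releases iron from enterocytes and macrophages, read 12.59 and 11.66 against 11.31, 11.82 and 11.43, and only villin-TLR4 replicate 1 stood above the rest (difference 0.60 ± 0.35). The related Slc11a1, a proton-coupled carrier of divalent metals in the phagosomes of macrophages and neutrophils, went the other way. Its brightest probe read 11.46 and 11.13 in villin-TLR4 and 12.76, 11.84 and 12.15 in WT littermates, with no overlap and a difference of -0.95 ± 0.33 (limma, unadjusted p = 0.0265, adjusted p = 0.87), the most negative of any member. Its 4 found probes disagreed, from -0.95 to 0.07. The brightest averaged 11.87 over all arrays, and the others were far dimmer, at 6.95, 6.64 and 6.46. These dimmer probes gave -0.16, -0.34 and 0.07. Macrophage genes averaged 10.17 and 10.44 against 11, 10.23 and 9.91, and their part in Slc11a1 was not tested. Over the class of 25, 14 members lay above 0 and 11 below.

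Anion exchangers and the chloride secretory route take part in moving fluid in the colon, beside the absorption of sodium. Slc26a6, an apical exchanger of chloride, bicarbonate and oxalate, read 7.12 and 7.05 in villin-TLR4 and 8.21, 7.78 and 7.88 in WT littermates. All villin-TLR4 values were lower. The difference was -0.87 ± 0.24 (limma, unadjusted p = 0.0105, adjusted p = 0.87), and -0.75 without WT littermate replicate 1.

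Slc26a3, the main chloride-bicarbonate exchanger of surface colonocytes, whose loss in people causes congenital chloride diarrhoea, read 11.60 and 11.27 in villin-TLR4 and 9.55, 12.21 and 12.99 in WT littermates. The WT littermate arrays lay on either side of the villin-TLR4 arrays. The difference was -0.15 ± 0.95 over all arrays and -1.17 without WT littermate replicate 1 (limma, unadjusted p = 0.00955, adjusted p = 0.338). Slc4a4, the basolateral sodium-bicarbonate cotransporter, had the same arrangement, with 7.63 and 7.59 against 6.54, 8.78 and 8.12, and its difference went from -0.21 to -0.85. Colonocyte markers averaged 12.61 and 13.04 against 11.99, 12.78 and 13.15 on these arrays, lowest on the same WT littermate replicate 1. Slc26a2, a sulfate carrier of the colonic epithelium, read 9.04 and 9.09 against 6.44, 8.28 and 8.83. Its groups did not overlap, and its difference of 1.22 ± 0.68 became 0.52 without that array. The basolateral anion exchanger Slc4a2 gave 0.18 ± 0.33 with overlapping groups.

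Of the cation-chloride cotransporters, Slc12a7, which lets potassium and chloride out of cells, read 10.19 and 10.00 in villin-TLR4 and 8.51, 9.55 and 9.45 in WT littermates. Both villin-TLR4 values were higher, by 0.92 ± 0.37 (limma, unadjusted p = 0.0438, adjusted p = 0.87) and by 0.59 without WT littermate replicate 1. Slc12a2, the basolateral sodium-potassium-chloride importer that feeds chloride secretion, read 13.78 and 13.48 against 13, 13.31 and 13.47, a difference of 0.37 ± 0.26. The nearest values of its 2 groups were 13.48 and 13.47, so the absence of overlap rests on a gap far below the SE. Slc12a4 gave -0.48 ± 0.25, with all villin-TLR4 values lower. In sodium-proton exchange, Slc9a9, an endosomal exchanger, gave 0.58 ± 0.25, with all villin-TLR4 values higher. It was found on only 1 of the 3 WT littermate arrays. Slc9a2 and Slc9a3, the exchangers that absorb sodium at the colonic surface, had no named probe. The scaffold Slc9a3r1, which holds Slc9a3 and other membrane proteins at the brush border, gave 0.41 ± 0.27 with overlapping groups.

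**Figure D3:**
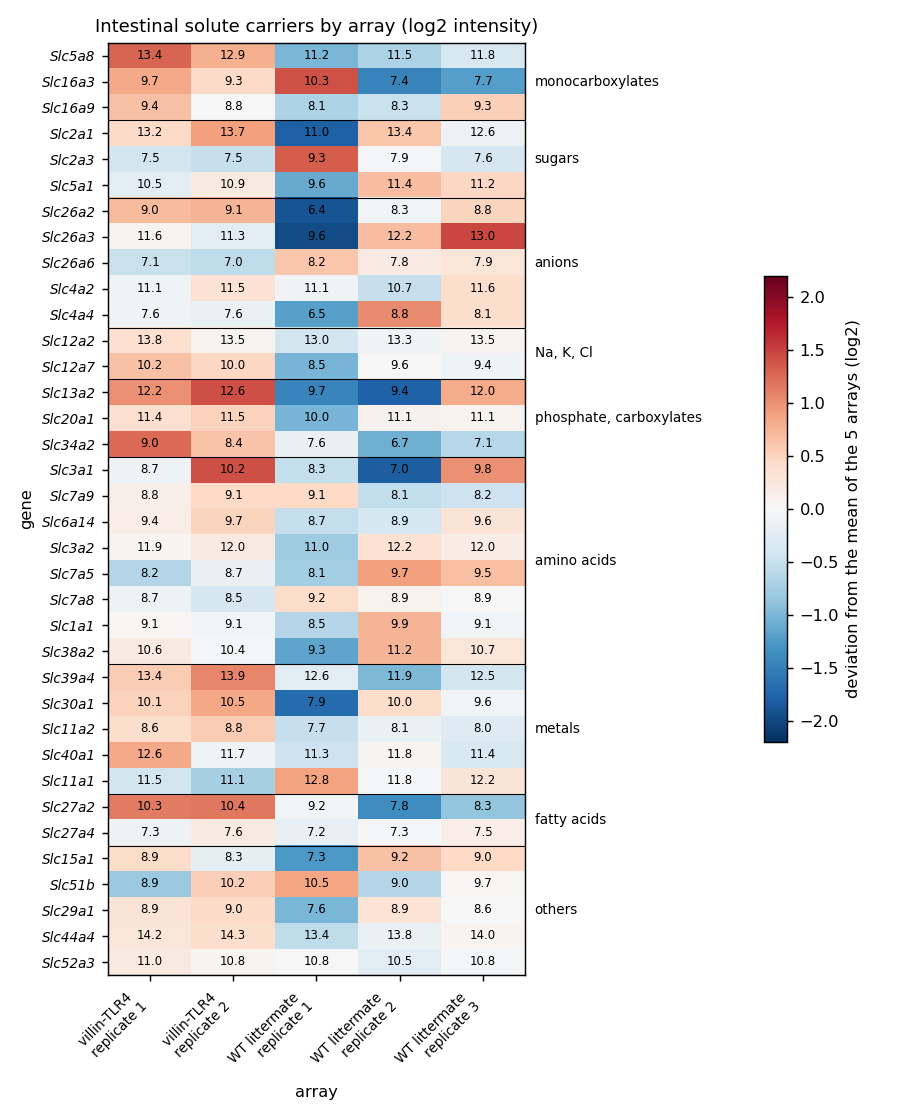
Log2 intensity (numbers) of 36 intestinal solute carriers on the 5 arrays, coloured by the deviation of each array from the gene's mean over the arrays and grouped by substrate. The column of WT littermate replicate 1 holds many of the darkest cells in both directions, such as Slc26a3 at 9.6 and Slc16a3 at 10.3, while Slc5a8 and Slc27a2 are red on both villin-TLR4 arrays.

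Glucose carriers showed no shared direction. Slc2a1, the basal glucose importer and a known target of hypoxia signalling, read 13.18 and 13.66 in villin-TLR4 and 10.97, 13.37 and 12.64 in WT littermates. WT littermate replicate 1 was lower by more than 1.5 than any other array, and the difference of 1.09 ± 0.68 became 0.41 without it. Slc2a3, the high-affinity importer of neurons and leukocytes, read 7.55 and 7.45 against 9.29, 7.92 and 7.60. The same array was highest here, and the difference of -0.77 ± 0.51 became -0.26. Slc5a1, the sodium-coupled glucose carrier of the brush border, gave -0.02 ± 0.55 over all arrays and -0.58 without WT littermate replicate 1 (limma, unadjusted p = 0.0431, adjusted p = 0.444). Of the 15 sugar carriers 8 lay above 0 and 7 below. Slc2a5, the fructose carrier, was found on 1 array, and Slc2a2, known from liver and small intestine, on 0.

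The 25 amino acid carriers had a median of 0.03, with 15 above 0 and 10 below, and 0 had an unadjusted p under 0.05. Slc3a1 is the heavy chain that partners Slc7a9 in the uptake of cystine and basic amino acids. It read 8.72 and 10.25 in villin-TLR4 and 8.31, 7.02 and 9.84 in WT littermates, so that the spread inside each group exceeded the difference of 1.09 ± 0.85. It ranged from 0.33 without villin-TLR4 replicate 2 to 1.86 without replicate 1 of that group, and within the scan day that held both genotypes it was 3.23 (limma with a block for scan day, unadjusted p = 0.00124, adjusted p = 0.333), a contrast of 1 array with 1 array. Slc7a9 itself gave 0.47 ± 0.36, or 0.79 without WT littermate replicate 1 (limma, unadjusted p = 0.00836, adjusted p = 0.33). The other heavy chain, Slc3a2, gave 0.22 ± 0.38 on its brighter probe and -0.27 on the other. Its light chain Slc7a5, which imports leucine and other large neutral amino acids into growing cells, read 8.20 and 8.67 against 8.08, 9.74 and 9.51. WT littermate replicates 2 and 3 were the highest, replicate 1 the lowest, and the difference of -0.68 ± 0.52 became -1.19 without replicate 1 (limma, unadjusted p = 0.00252, adjusted p = 0.29).

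Further amino acid carriers differed less. Slc7a8, another light chain of Slc3a2, gave -0.41 ± 0.25 with no overlap on its brighter probe. Its other probe, found on 2 arrays, gave 0.11. Slc6a14, a broad importer that rises in inflamed colon in people, gave 0.52 ± 0.32 and Slc1a1 of the glutamate carriers -0.04 ± 0.42. The glutamine carrier Slc1a5, not measured on WT littermate replicate 1, gave 0.01 ± 0.29. Slc38a2 gave 0.13 ± 0.56 on its brighter probe and -0.44 on the other. The taurine carrier Slc6a6, counted here among neurotransmitter and vesicular carriers, gave 0.38 ± 0.42. Slc7a1, the cationic amino acid importer, was found on neither array of villin-TLR4, where it read 6.29 and 6.31. In WT littermates it read 7.76, 6.54 and 6.74 and was found on 2 of the 3 arrays. The bound on its difference was not positive, so no difference is given. Slc36a1, a proton-coupled carrier of small amino acids, gave 0.27 ± 0.24 with no overlap. The cystine importer Slc7a11 was found on 1 array and the main neutral amino acid importer of the small intestine, Slc6a19, had no named probe.

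Vitamin and choline carriers were led by Slc46a3, a lysosomal carrier related to the folate carrier Slc46a1. It read 10.49 and 10.56 in villin-TLR4 and 9.51, 9.21 and 9.40 in WT littermates. The values inside each group lay within about 0.3 of each other, and the groups were about 1 apart. The difference was 1.15 ± 0.23 (limma, unadjusted p = 0.00202, adjusted p = 0.87), with 1.07 to 1.22 on leaving out each array, the narrowest range relative to its size among the 8 with higher means. Slc44a4, a carrier of thiamine pyrophosphate in the colon, read 14.20 and 14.31 against 13.37, 13.78 and 13.99, a difference of 0.54 ± 0.27 with no overlap. The riboflavin carrier Slc52a3 gave 0.22 ± 0.23. Slc5a7, the choline importer of cholinergic neurons, was found on neither array of villin-TLR4, where it read 6.25 and 6.41. In WT littermates it read 7.53, 7.00 and 6.45 and was found on 2 arrays. The bound on its difference was not positive, so no difference is given. Enteric neuron and glia genes, 5 of 9 kept, had a median difference of 0.06, or -0.26 without WT littermate replicate 1. Their part in Slc5a7 was not tested.

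Slc66a2, which was not assigned a substrate here, read 10.18 and 10.21 in villin-TLR4 and 10.96, 10.85 and 10.88 in WT littermates. The groups were tight and apart. The difference was -0.70 ± 0.22 (limma, unadjusted p = 0.0164, adjusted p = 0.87), and it moved only between -0.72 and -0.67 on leaving out each array.

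Peptide, bile acid, nucleoside and other carriers gave smaller or less even differences. Slc15a1, the importer of di- and tripeptides, read 8.95 and 8.34 in villin-TLR4 and 7.29, 9.19 and 9 in WT littermates, and its difference turned from 0.15 ± 0.60 to -0.45 without WT littermate replicate 1. Slc51b, a subunit of the basolateral bile acid exporter, read 8.86 and 10.21 against 10.54, 9.03 and 9.70, with a difference of -0.22 ± 0.56. Its partner Slc51a was found on 1 array and the ileal bile acid importer Slc10a2 on 0. The equilibrative nucleoside carrier Slc29a1 gave 0.59 ± 0.41, or 0.20 without WT littermate replicate 1, and the carnitine carrier Slc22a5 0.09 ± 0.23. Slc35a1, the Golgi carrier of CMP-sialic acid, gave -0.02 ± 0.31 without a value on WT littermate replicate 1, and Slc35a3, the Golgi carrier of UDP-N-acetylglucosamine, 0.68 ± 0.41 with no overlap, or 0.29 without that array. Slc4a1, the anion exchanger of red blood cells, read 7.76 and 7.12 against 7.35, 6.31 and 6.61. It was found on both villin-TLR4 arrays and on no WT littermate array, so only a bound on the difference of means is given, 1.27-fold higher in villin-TLR4. The groups overlapped, with WT littermate replicate 1 above villin-TLR4 replicate 2. It passed the filter through the villin-TLR4 arrays alone, so no test of it is read. The red cell genes Hba-a1 and Alas2, the 2 kept of 7 listed, were also highest on villin-TLR4 replicate 1, at 15.34 and 9.84, and their part in Slc4a1 was not tested.

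The fit without WT littermate replicate 1 again called 0 of 176 members and 0 of 15055 genes after adjustment. At an unadjusted p under 0.05 there were 19 members (10.8%), where 10.9% of all genes were past it. These were 12 with higher means in villin-TLR4 (6.82%, with 5.31% of all genes) and 7 with lower (3.98%, with 5.58%). Of the 11 members past it with all arrays, 10 were past it here too, 7 higher and 3 lower, and the exception was Slc13a2. The 9 others were Slc16a3, Slc28a3, Slc5a9, Slc7a9 and Slc4a1 with higher means and Slc7a5, Slc26a3, Slc4a4 and Slc5a1 with lower. Slc4a1 was found on no WT littermate array, so its place in this count is no support for a difference. Of the 9, Slc28a3, a concentrative nucleoside carrier, and Slc5a9, a sodium-coupled sugar carrier, were named after their values were seen. Slc28a3 read 9.32 and 9.18 against 9.70, 8.01 and 7.37, and its difference of 0.89 became 1.56. Slc5a9 read 8.91 and 8.72 against 8.72, 7.88 and 7.88, and its difference of 0.65 became 0.93. Among other members named above, the difference without this array was 0.31 for Slc16a9, 0.24 for Slc12a2, 0.26 for Slc9a3r1, -0.12 for Slc3a2, -0.36 for Slc1a1, -0.43 for Slc38a2, -0.02 for Slc6a6 and 0.17 for Slc51b. The share of members above 0 was 54.5% in this fit, with 48.1% of all genes, and the median was 0.05 against -0.02.

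**Figure D4:**
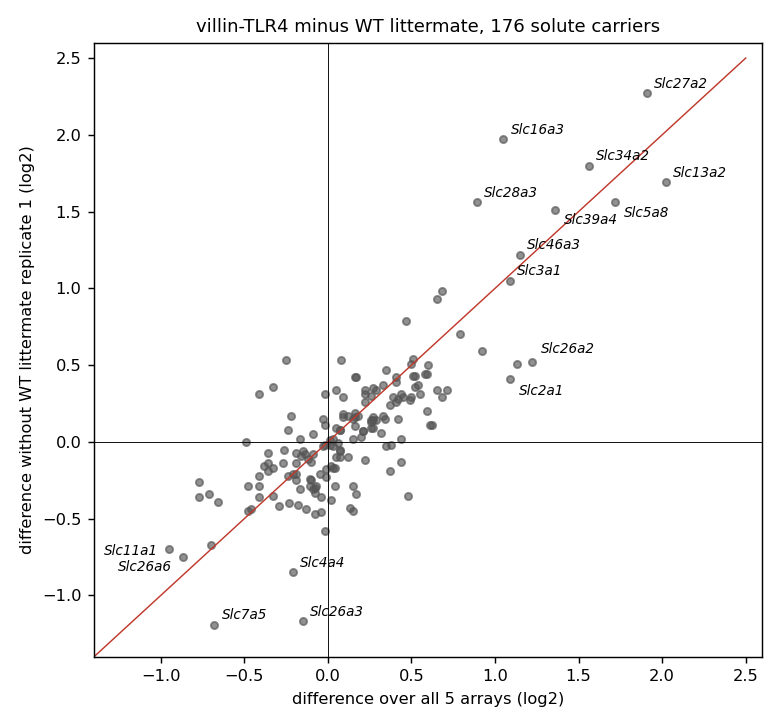
Log2 difference of the 176 solute carriers over all 5 arrays (horizontal) and without WT littermate replicate 1 (vertical), with the line of equality in red. Slc27a2, Slc34a2, Slc39a4 and Slc46a3 lie near the line, Slc16a3 and Slc28a3 above it, and Slc26a3 (-0.15 and -1.17), Slc7a5 and Slc4a4 below.

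Scans were made on 3 days, and 1 day held both genotypes, with villin-TLR4 replicate 2 (male) and WT littermate replicate 2 (female), so sex cannot be told apart from genotype on it. Within that day the differences were 3.23 for Slc3a1, the largest of any member, 3.19 for Slc13a2, 2.53 for Slc27a2, 2.06 for Slc39a4, 1.71 for Slc34a2, 1.48 for Slc5a8 and 1.36 for Slc46a3. They were 0.72 for Slc11a2, 0.44 for Slc12a7, -0.73 for Slc26a6, -0.71 for Slc11a1 and -0.65 for Slc66a2. The groups did not overlap for any of the 11 members with an unadjusted p under 0.05. Their direction within that day was therefore fixed in advance. The median over members was 0.10. A fit with a block for scan day takes the contrast of 1 array with 1 array, and its residual spread comes only from WT littermate replicates 1 and 3, of which the first is the dim array. In that fit 5 members had higher means at an unadjusted p under 0.05 (2.84%, with 1.57% of all genes) and 0 lower (with 0.618%). After adjustment 0 members passed, with 0.0266% of all genes.

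Proteins that work beside the solute carriers were read from a list of 27 pumps, channels and partner proteins, of which 20 were kept. Of these 11 lay above 0 (with 50.9% of all genes) and 9 below. At an unadjusted p under 0.05 the mean was higher in villin-TLR4 for 0 (with 2.7% of all genes). It was lower for 1 (with 2.14%), and 0 passed after adjustment. Kcnn4, the basolateral potassium channel that drives chloride secretion, read 9.97 and 9.93 in villin-TLR4 and 10.45, 10.68 and 10.54 in WT littermates. All villin-TLR4 values were lower, with a difference of -0.61 ± 0.22 (limma, unadjusted p = 0.0321, adjusted p = 0.87). The potassium channel Kcnq1 had the largest positive difference of the list, 1.28 ± 0.84, which became 0.38 without WT littermate replicate 1. The organic anion carrier Slco2b1 gave 0.81 ± 0.50, or 0.33 without that array, and Emb, a partner of monocarboxylate carriers, -0.65 ± 0.56, or -0.11. The efflux pump Abcg2 gave -0.63 ± 0.46, or -0.93 without it, with overlapping groups as for Kcnq1, Slco2b1 and Emb.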

How the data were processed

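Labelled RNA of 5 colon samples was hybridised to single-colour long-oligonucleotide arrays. Per the file headers, the authors scanned them on a GenePix 4000B, and GenePix Pro 4.1.1.4 read, for 38880 spots, the intensity at 635 nm inside and around the spot and set a flag score (0 found, -50 not found, -75 absent, -100 bad). These intensities were deposited without normalization. The authors' deposited value table holds a linear ratio per probe. Differences of its log2 values between arrays matched those of the background-subtracted intensities (r of at least 0.999947 across found spots), so its direction is known, while the value each probe was divided by stays unknown. Its column medians were 0.981, 1.06, 1.18, 0.98 and 0.991. It served as an alternative only.

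Median intensities were background-corrected by normexp with an offset of 50 (limma 3.58.1, R 4.3.3), bad spots were set to missing, 3802 control spots were left out, and log2 values of 35078 gene probes were quantile normalized. Probes were named by RefSeq accession through a gene table of GRCm38.p6, which gave 23071 probes a symbol and left 12007 unnamed, and the brightest probe found on at least 2 arrays stood for a gene. Of the members 46 had several such probes, and for 19 these differed in sign. Groups were compared with lmFit and eBayes. Where no array of a group had found a gene, only a bound is given, from whichever is higher on each array, the gene's signal or the lowest one of found probes more than 2 background SDs above background. No bound is given where it was not positive. Named were members whose groups did not overlap at an unadjusted p under 0.05, the largest non-overlapping difference of each direction in each substrate class, and a list of 59 intestinal transporters, of which 47 were kept, 8 were not and 4 had no named probe. These and the class and marker lists were chosen with earlier results of these data known. The code was tested on simulated data. Alternatives changed the background correction, scaling, filter, probe choice, variance model, source of values, blocks and covariates, or left out an array. Some listed items are not reported here, and the list counts leave them out. Probe sequences were not used here.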

Additional observations from a re-analysis of the deposited data

How the results depend on the processing

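The number of arrays, 5, limits the precision, and 1 of them was dim. Of 17 alternative settings, 16 left 0 members with an adjusted p under 0.05. A replicate block over replicates 1 and 2 called 1, Slc13a2 (difference 2.83, adjusted p = 0.0491), among 20 of all genes. This setting leaves out WT littermate replicate 3, which at 11.99 lay closest to villin-TLR4 for Slc13a2, and the difference is the one without that array. The replicate numbers do not pair the samples by any label, and across 14609 genes the replicate differences of the groups correlated at r = -0.19. The 11 members with an unadjusted p under 0.05 became 18 with no filter on flags, 5 with scan day as a block, 6 with sex as a covariate and 5 to 19 on leaving out each array, lowest without villin-TLR4 replicate 1 and highest without WT littermate replicate 1. The count was 6 without villin-TLR4 replicate 2, which gives the same contrast as the sex covariate. Where 1 villin-TLR4 array remained, it was assumed to vary like the WT littermates. The 45 members without overlap became 23 with the deposited ratios, which had values on all arrays for fewer members, and 62 to 85 on leaving out each array, where fewer arrays make overlap rarer. The median difference stayed between 0.05 and 0.19 on leaving out each array. For the change with the filter the cause was not tested.

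Of the 62 named genes, 44 kept their direction in each setting run, and the other 18 turned in at least 1 setting. Among the 44 were all 11 members past the unadjusted threshold. The groups of these 11 did not overlap, so leaving out an array, a block or the sex covariate could not turn them. With scan day as a block the differences were 1.18 for Slc51b, -0.85 for Slc15a1, -0.13 for Slc3a2, 0.22 for Slc7a7, -0.04 for Slc1a5, -0.21 for Slc6a6, -0.17 for Slc40a1, 0.39 for Slc35a1 and -0.81 for Slc38a2. With the replicate block they were 0.55 for Slc26a3, 0.20 for Slc5a1, -0.04 for Slc1a5 and 0.39 for Slc35a1. With sex as a covariate they were 0.02 for Slc26a3, -0.03 for Slc4a2, 0.01 for Slc1a1, -0.09 for Slc27a4, -0.01 for Slc28a2 and 0.21 for Slc37a2. The deposited ratios gave 0.03 for Slc26a3, -0.51 for Slc15a1, 0.10 for Slc5a1, 0.05 for Slc7a7, 0.04 for Slc1a1, -0.08 for Slc27a4 and 0.16 for Slc35a1. Scaling to the 75th percentile gave 0.08 for Slc5a1, 0.06 for Slc7a7, -0.03 for Slc39a14, -0.12 for Slc27a4, -0.23 for Slc28a2 and 0.08 for Slc35a1. Cyclic loess gave -0.03 for Slc15a1, 0.02 for Slc5a1, -0.01 for Slc27a4, -0.03 for Slc28a2 and 0.02 for Slc35a1. The mean of all probes gave 0.01 for Slc5a1, -0.02 for Slc3a2, 0.08 for Slc1a1, 0.38 for Slc35a1 and -0.15 for Slc38a2, and no background correction gave -0.06 for Slc39a14.

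Leaving out each array gave -1.17 to 0.55 for Slc26a3, -0.04 to 0.40 for Slc4a2, -0.85 to 0.27 for Slc4a4, -0.90 to 0.45 for Slc51b, -0.45 to 0.50 for Slc15a1, -0.58 to 0.31 for Slc5a1, -0.12 to 0.44 for Slc3a2, -0.10 to 0.11 for Slc7a7, -0.36 to 0.33 for Slc1a1, -0.17 to 0.19 for Slc1a5, -0.02 to 0.58 for Slc6a6, -0.09 to 0.22 for Slc27a4, -0.06 to 0.16 for Slc28a2, -0.25 to 0.21 for Slc35a1, -0.43 to 0.53 for Slc38a2 and -0.37 to 0.23 for Slc37a2. The cause of these turns was not tested.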
